A study of Arabidopsis thaliana with 236 samples.

Results

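The 150 loci described here had a higher array signal in sorted cortex cells than in sorted pericycle cells of the Arabidopsis thaliana root in each of 3 treatment arms. For each of 27143 loci, cortex minus pericycle was taken on the log2 scale at the same hour and averaged over 13 hours in each arm. The 150 loci with the largest minimum of the 3 averages were kept. The loci were chosen by these cortex minus pericycle values of the arrays from 1 to 48 h, so those values are given as a description and carry no test. By the same rule turned the other way, 150 loci were higher in pericycle in every arm.

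The cells came from Col-0 roots of lines with a green fluorescent protein reporter in cortex or in pericycle, and were sorted by fluorescence after the roots were turned into protoplasts. Seedlings grew for 9 days on agar with 0.1 mM KNO3 and 30 mM sucrose under 16 h of light and 8 h of dark. They were treated at dawn with fresh 0.1 mM KNO3 (standard), with 5 mM KNO3 (nitrogen) or with fresh 0.1 mM KNO3 and Sinorhizobium meliloti at an OD600 of 0.8 (rhizobium). Cells were taken before treatment (0 h) and at 13 hours from 1 to 48 h. The labels give an age of 12 days and do not name the reporter lines. There were 110 cortex arrays (3 at 0 h, 37 standard, 32 nitrogen, 38 rhizobium) and 125 pericycle arrays (5, 37, 41 and 42), with 2 to 5 arrays in each of 80 groups. A pair of near-identical pericycle arrays (r = 0.9992) was averaged and counted as 1. Nothing says that arrays of a group came from separate cultures, so p-values measure the spread between arrays. Each locus had 1 estimate of that spread for both cell types, although the median SD over all loci was 0.70 in cortex and 0.90 in pericycle. Tests within pericycle can thus pass more readily, and those within cortex less readily, than with cell types fitted alone. Counts from such fits are given at the end.

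The cortex is the ground tissue between epidermis and endodermis, and carries water and nutrients inward and stores starch. The pericycle lies just inside the endodermis and gives rise to lateral roots. Roots kept in the light can turn on photosynthesis genes in their ground tissue, and both layers respond to nitrate and to microbes.

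Markers of the sorted layers were checked first. None of 7 listed cortex markers was among the 150 loci. Of these 7 markers, 4 were higher in cortex in every arm, as were 24.3% of all loci. At 0 h their array means were 10.35 to 10.77 in cortex and 10.10 to 11.16 in pericycle, so the cell types overlapped. Endodermis markers had array means of 6.10 to 9.49 in cortex and 6.43 to 11.37 in pericycle, so these also overlapped, with medians of 6.73 to 6.85 in cortex and 7.94 to 10.04 in pericycle. Of the 7 cortex markers, 0 were called higher in cortex at 0 h and 1 lower (limma, adjusted p below 0.05). The shares of all loci were 5.18% and 5.84%. Among pericycle and stele markers, 5 of 7 were lower in cortex in every arm, as were 24.1% of all loci. The other 2 were higher in cortex in every arm, against their expected layer. In cell mixtures, fewer cells of a type and less RNA per cell cannot be told apart.

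The minimum of the 3 arm values ran from 1.68 at AT5G45520 down to 0.87, a 1.83-fold difference, at AT3G63290. The other loci at the edge were AT5G14290 (0.87) and AT5G42070 (0.88), and those just outside were AT4G02550, LCR43 and AT1G67670 (each 0.87). A minimum of at least 1 was found for 81 loci, against 553 loci in the pericycle direction, where the largest minimum was 4.92. The medians of the 150 loci were 1.21 (standard), 1.14 (nitrogen) and 1.45 (rhizobium), and those of all loci were -0.01, 0.01 and -0.00. The nitrogen arm gave the smallest value for 77 of the 150 loci, the standard arm for 52 and the rhizobium arm for 21.

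**Figure D1:**
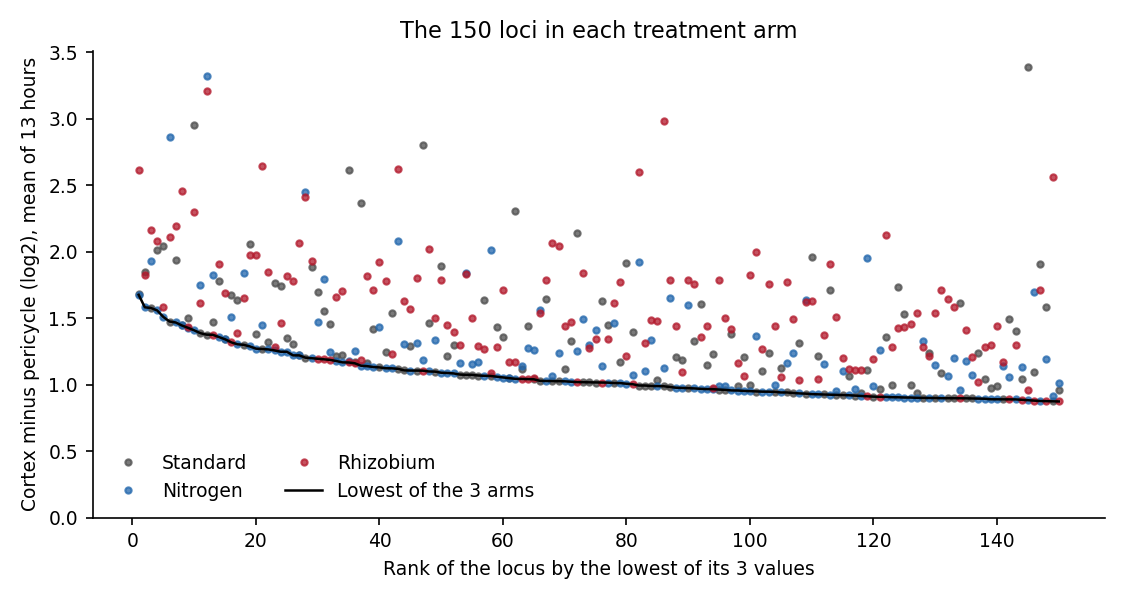
Cortex minus pericycle (log2, mean of 13 hours) of the 150 loci by rank, with a point for each arm and a line for the lowest of the 3 values. The line falls from 1.68 to 0.87, and values well above it, up to 3.38 for AT2G43560 in the standard arm, lie in a single arm or a pair of arms.

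The 39 same-hour differences (13 hours in 3 arms) were positive 28 to 39 times per locus, with a median of 34. AT5G03090 and MRD1 (AT1G53480), a transcript named for its fall in a methionine overaccumulation mutant, were positive at all 39. The largest gap between arms was that of AT2G43560, with 3.38 in the standard arm, 0.88 in nitrogen and 0.96 in rhizobium. MRD1 had the opposite order, with 1.38 in the standard arm, 3.32 in nitrogen and 3.21 in rhizobium.

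Single arrays overlapped widely. AT5G45520, the leading locus, had a lowest, median and highest standard level of 7.57, 11.03 and 12.24 in cortex and of 4.95, 9.14 and 11.85 in pericycle (log2 intensity). On rhizobium arrays its cortex levels were 9.96, 11.30 and 12.59 and its pericycle levels 4.77, 8.73 and 12.30. Of the standard arrays, 34 of 37 cortex arrays lay above the pericycle median and 2 of 37 pericycle arrays above the cortex median. For each of the 150 loci, the ranges of the cell types overlapped in every arm.

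The same pattern was seen in the mean of the 150 loci on each array. It was 8.55 to 10.36 (median 9.79) on cortex standard arrays and 7.28 to 9.59 (median 8.19) on pericycle standard arrays. The medians were 9.70 against 8.29 in nitrogen and 9.80 against 8.13 in rhizobium. No pericycle array reached the cortex median of 9.79, whereas 73 of 125 exceeded the lowest cortex array. A level below 6, near the floor of these data, was found for a median of 2.67% of the 150 loci on cortex standard arrays and 15.3% on pericycle standard arrays. Over all loci these shares were 27.2% and 25.8%. The spread between arrays of a group was also larger for these loci, with a median SD of 1.07 in cortex and 1.48 in pericycle, against 0.70 and 0.90 over all loci.

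**Figure D2:**
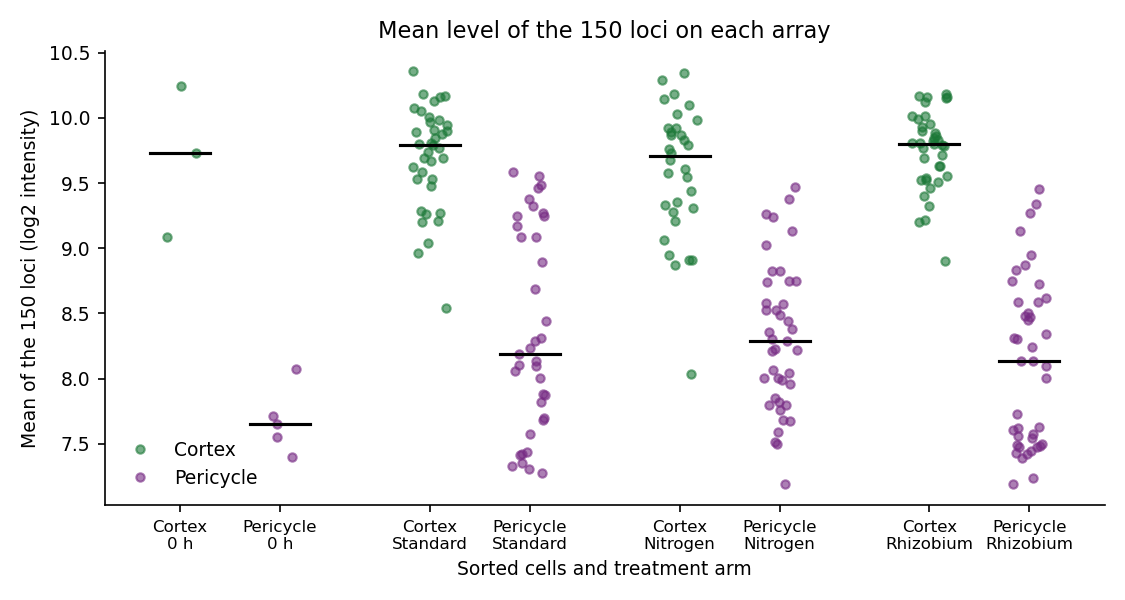
Mean log2 intensity of the 150 loci on each array, by sorted cell type and arm, with a bar at the median. Cortex arrays lie mostly above 9 (102 of 110), and pericycle arrays spread from 7.19 to 9.59, with 22 of 125 above 9.

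Endodermis markers moved with this spread on pericycle arrays. Across pericycle arrays, the mean of the 150 loci and the mean of 12 endodermis markers gave Pearson's r of -0.59 in standard (37 arrays), -0.55 in nitrogen (41) and -0.77 in rhizobium (42). Spearman's rho was -0.62, -0.56 and -0.72, and r without the 2 arrays farthest in marker level was -0.64, -0.59 and -0.75. The mean of the cortex markers gave r of 0.61, 0.53 and 0.62 on the same arrays. On cortex arrays, endodermis markers gave r of 0.19, -0.32 and -0.01. The share of all loci below 6 on an array gave r of 0.50, 0.71 and 0.58 in cortex. In pericycle that share gave 0.51, 0.17 and 0.30. All values of an array share its RNA and its normalization. The part of these markers and of this share in the arm differences was not tested.

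Names in the RefSeq annotation of TAIR10.1 allowed 56 of the 150 loci to be placed by role, and the other 94 are given by identifier where named. The 150 loci lay on all 5 nuclear chromosomes in numbers of 38, 18, 34, 22 and 38, and none was in the plastid or mitochondrial genome. Among the neighbours in gene order were RLP40 and RLP41, RLP42 and AT3G25014, and CYP89A2 and AT1G64910. Nearby copies of 1 family, as the names RLP40, RLP41 and RLP42 imply, can share probe signal, so their separate levels are uncertain. Gene order alone does not place the other neighbours in 1 family.

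The photosynthesis and plastid group had 12 loci. PETE1 (AT1G76100), a plastocyanin that carries electrons to photosystem I, differed by 1.39 (standard), 1.75 (nitrogen) and 1.61 (rhizobium). Its standard levels had a lowest, median and highest of 7.09, 10.64 and 12.28 in cortex and 6.07, 8.63 and 11.84 in pericycle. PSAN, a photosystem I subunit, FNR1, which passes electrons to NADP, and PRK, the Calvin cycle kinase, had minima of 1.09, 1.02 and 0.98. SS1, a starch synthase, stood at 1.30, ACD1, which opens the chlorophyll ring during breakdown, at 1.12 and CDSP32, a plastid thioredoxin, at 1.03. Of 41 listed green tissue genes, 11 were higher in cortex in every arm, a share near the 24.3% of all loci, and PSAN, PETE1 and PRK were among the 150 loci. The list's median difference was 1.39 in standard, 1.14 in nitrogen and -0.17 with rhizobium.

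Of 7 transcription factors, LBD26 (AT3G27940), of the lateral organ boundaries family, had the largest minimum at 1.56. Its rhizobium levels had a lowest, median and highest of 10.07, 11.93 and 12.73 in cortex and 5.55, 9.49 and 12.90 in pericycle, so the ranges overlapped. EPR1 (AT1G18330, also RVE7), a MYB-like relative of the clock factors CCA1 and LHY, differed by 2.37 in the standard arm and by 1.14 and 1.19 in nitrogen and rhizobium. CCA1 and LHY themselves had values between -0.54 and 0.25. MGP (1.03), a zinc finger factor of ground tissue downstream of SHR and SCR, its relative IDD5 (0.98), APRR2 (1.01), KNU (1.00) and MYB55 (0.89) completed the group.

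Receptors and signalling proteins made up 12 loci. PKS2 (AT1G14280), a substrate of phytochrome kinase activity in light signalling, had a minimum of 1.58 and APD7 (AT5G02760), a protein phosphatase, had rank 5. The receptor-like proteins RLP42, RLP41 and RLP40 (1.17, 1.09 and 0.95), the lectin receptor kinases LecRK-I.5 and LecRK-VIII.1 (1.12 and 1.07), the glutamate receptor-like channel GLR3.6 (1.12) and the immune receptor SNC1 (0.90) are at the cell surface or in immunity. ETR2 (0.95) is an ethylene receptor and HAI3 (1.05) a phosphatase induced by abscisic acid. The 7 cell wall loci were led by CESA4 (AT5G44030), a cellulose synthase of secondary walls, with 1.78, 1.36 and 1.91 in the 3 arms. PME12, a pectin methylesterase, and the mannan enzymes MAN2 and CSLA11 had minima of 1.19, 1.13 and 0.99. Smaller groups held the vacuolar antiporter NHX2 (1.18), the POLARIS peptide gene PLS (1.27), the gibberellin enzyme gene GA20OX2 (0.91) and CYP89A2 (AT1G64900), a cytochrome P450 with 1.43 as its minimum.

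The 0 h arrays were not used by the rule, so the cell type difference was tested there. Of the 150 loci, 43 were higher in cortex and 0 lower (limma, adjusted p below 0.05), against 5.18% of all loci higher and 5.84% lower. The median difference was 2.09, against -0.10 over all loci, and 141 of 150 differences were above 0. Every cortex array lay above every pericycle array for 42 of the 150 loci, against 4.42% of all loci. At an unadjusted p below 0.05 there were 82 in either direction, a count with no share of all loci beside it.

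MRD1 was at 11.23, 10.34 and 9.83 on the 3 cortex arrays and at 5.43, 7.78, 5.05, 4.96 and 5.01 on the 5 pericycle arrays. The lowest cortex array stood above the highest pericycle array, and the difference was 4.82 ± 1.00 (SE; adjusted p = 0.000591 in limma), or 28.2-fold. AT1G14500 was at 10.68, 10.47 and 9.38 in cortex and 5.07, 6.06, 5.36, 6.44 and 5.17 in pericycle, again without overlap. Its difference of 4.56 ± 1.03 (adjusted p = 0.00169) passed under every alternative listed at the end. AT5G45520, at 11.17, 9.70 and 8.26 against 6.31, 5.23, 5.38, 4.98 and 5.86, differed by 4.16 ± 1.05 (adjusted p = 0.00493), and did not pass without the arrays numbered 2 (adjusted p = 0.0773).

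By role, 4 of 7 transcription factors were higher in cortex at 0 h: EPR1 by 3.46, MGP by 3.37, APRR2 by 3.29 and IDD5 by 3.27. For each of these 4, at least 1 pericycle array lay above a cortex array. The mean of 11 listed morning clock genes, EPR1 among them, was 11.04 to 12.21 in cortex and 8.69 to 11.90 in pericycle, and its part was not tested. LecRK-I.5 (4.06), RLP40 (3.73) and SNC1 (3.24) passed among 12 receptors and signalling proteins. The cell wall genes MAN2 (2.86), PME12 (3.39) and COBL2 (2.08), named for the COBRA family of wall proteins, passed among 7. Each of the 3 metabolism loci passed, namely LPAT3 (3.91), of phospholipid synthesis, GNA1 (3.70), of amino sugar synthesis, and CYP89A2 (2.32). Of 4 loci placed under reproduction, MCC1 (3.71), ASY1 (3.41) and UNE7 (2.91) passed. Of 12 photosynthesis and plastid loci, CDSP32 (3.58) and ACD1 (2.73) passed. PETE1, at 10.02, 10.76 and 11.28 in cortex against 7.72, 9.36, 9.01, 8.60 and 9.79 in pericycle, differed by 1.79 ± 1.04 without passing (adjusted p = 0.254). The largest difference in the other direction was that of ETR2, -1.14 ± 0.88 (adjusted p = 0.414).

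**Figure D3:**
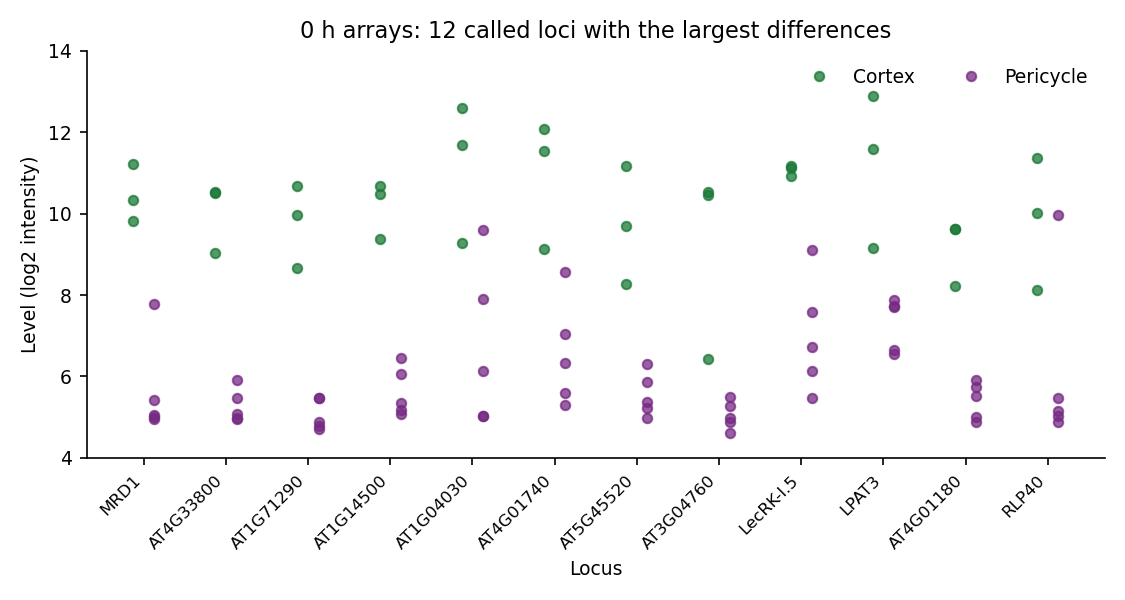
Log2 intensity on the 3 cortex and 5 pericycle arrays at 0 h for the 12 called loci with the largest differences. Cortex points lie above pericycle points for most of these loci, and AT1G04030 and RLP40 overlap.

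The 0 h result leaned on few arrays and moved with other markers. Leaving out the arrays numbered 1 left 20 of the 150 loci higher (2.6% of all loci), those numbered 2 left 16 (1.72%) and those numbered 3 left 34 (2.39%). Endodermis markers averaged 6.46, 7.03 and 6.79 in cortex and 7.03, 9.80, 10.97, 10.04 and 10.91 in pericycle. Root hair and epidermis markers averaged 6.57 to 6.82 against 8.18 to 10.03, without overlap. With the endodermis mean as a covariate, 6 loci remained higher (1.57% of all loci): AT1G14500, AT4G01740, AT3G04760, CYP89A2, IDD5 and SNC1. Every pericycle array of 0 h lay above every cortex array in that mean. The fit thus compares the cell types at marker levels that they did not share. Passing in it does not show that a difference is independent of endodermis signal. Heat shock genes averaged 13.03, 13.94 and 10.72 in cortex and 9.18 to 12.81 in pericycle, and 25 loci were higher with that mean as a covariate (3.29%). The median difference of the 150 loci was 1.34 with the endodermis covariate and 1.89 with the heat shock covariate.

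Treatment was tested within each cell type, over the 13 hours, against standard arrays of the same hours. The same arrays had entered the rule, which asks for a high cortex level in every arm. Nitrogen and rhizobium responses share the standard arrays and are given side by side.

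In cortex, the gibberellin 20-oxidase gene GA20OX2 and AT5G13140 rose on nitrogen, and AT3G04760 and AT2G43560 fell on both treatments. On nitrogen, 8 of the 150 loci rose, against 20.9% of all loci, and 23 fell, against 14.8%. The median change was -0.20, and that of all loci 0.08. With rhizobium, 13 rose (21.8% of all loci) and 14 fell (16%), with medians of 0.14 and 0.07. Shares of the 150 loci were thus below those of all loci for rises on both treatments, near them for falls on nitrogen and below them for falls with rhizobium (9.33% against 16%). A larger spread, as these loci had in cortex (median SD 1.07 against 0.70), makes a call less likely at an equal change. Its part in these shares was not tested.

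GA20OX2 (AT5G51810), which makes gibberellin precursors, had standard cortex levels of 5.41, 8.00 and 10.33 (lowest, median and highest) and nitrogen levels of 6.48, 9.94 and 12.10. Rhizobium levels were 4.99, 8.19 and 10.20, close to standard. The ranges overlapped, but nitrogen was higher at 13 of 13 hours, by 1.90 ± 0.29 or 3.73-fold (limma, adjusted p = 1.41e-08). AT5G13140 had standard levels of 4.45, 7.79 and 10.45 and nitrogen levels of 4.98, 10.91 and 12.30, and rose 5.27-fold (SE 0.43 on the log2 scale; adjusted p = 1.92e-06), being higher at 12 of 13 hours. RZPF34 (AT5G22920), a RING zinc finger protein, rose by 1.74 ± 0.44 (adjusted p = 0.000671). PCB2, of chlorophyll synthesis, and IDD5 rose by 0.91 and 0.85. Neither passed without the arrays numbered 1 or without those numbered 3, and PCB2 did not pass without those numbered 2.

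AT2G43560 fell furthest in cortex with rhizobium. Its standard levels were 7.77, 11.31 and 13.36, its nitrogen levels 5.32, 9.57 and 12.31 and its rhizobium levels 5.17, 8.15 and 11.09. It was lower at all 13 hours on either treatment, by -2.96 ± 0.34 with rhizobium (7.76-fold; adjusted p = 3.43e-13 in limma) and by -1.67 ± 0.36 on nitrogen. AT3G04760 fell 4.58-fold on nitrogen (SE 0.34 on the log2 scale) and by 1.62 ± 0.32 with rhizobium. AT5G14290 rose with rhizobium by 1.86 ± 0.34 at 13 of 13 hours (adjusted p = 2.98e-06), from a standard median of 6.30 to 8.54, and its nitrogen change of 0.14 did not pass.

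In the photosynthesis and plastid group, 5 of 12 loci fell in cortex on nitrogen: FD4, a ferredoxin, by 1.29, LPA19, of photosystem II assembly, by 1.28, CDSP32 by 0.82, FNR1 by 0.81 on the log2 scale, and ACD1 2.14-fold. PCB2 rose, as given above, and with rhizobium FD4 and FNR1 fell, by 0.88 and 0.73. The 41 listed green tissue genes had another pattern in cortex: on nitrogen 3 rose and 2 fell, with a median of 0.26, and with rhizobium 1 rose and 27 fell, with a median of -1.05. EPR1 fell by 1.05 on nitrogen and 1.47 with rhizobium, COBL2 by 0.87 and 0.98, and ROF2 (AT5G48570), a heat-inducible immunophilin, by 1.15 and 1.24. Heat shock genes moved with these falls: the mean of 26 listed genes had a median of 13.93 on cortex standard arrays, against 10.58 on nitrogen and 10.40 on rhizobium arrays. With that mean as a covariate, 3 of the 150 loci fell on nitrogen (6.15% of all loci) and 2 with rhizobium (6.5%), and 8 (7.45%) and 5 (7.67%) rose. On nitrogen, GA20OX2, AT5G13140, PCB2, AT1G11160 and AT2G19890 were among the loci that passed in that fit, as were AT2G43560, AT3G25014, AT5G14290 and CWINV5 with rhizobium. AT3G04760 on nitrogen did not, at -1.51 (adjusted p = 0.0527), nor did RZPF34 on nitrogen, at 1.75 (0.0857). FD4 and LPA19 on nitrogen and EPR1 with rhizobium stood at -0.33, -0.15 and -0.30 without passing, and ROF2, itself in that list, turned to 1.81 with rhizobium.

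Set directly against each other in cortex, nitrogen exceeded rhizobium at 5 of the 150 loci (7.21% of all loci) and was lower at 7 (7.6%). GA20OX2 was higher by 1.93 ± 0.28 (adjusted p = 2.76e-08 in limma), AT3G56220 by 1.45 and AT5G13140 by 1.36. AT5G14290 was lower by -1.72 ± 0.36 (adjusted p = 0.000117), ACD1 by -1.24 and AT5G45520 by -1.02. GA20OX2 and AT5G14290 passed under each alternative run. Without the arrays numbered 1, 2 were higher (5.41% of all loci) and 2 lower (4.83%). Without those numbered 2, 3 were higher (3.44%) and 2 lower (3.09%), and without those numbered 3, 3 were higher (3.98%) and 4 lower (3.91%).

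**Figure D4:**
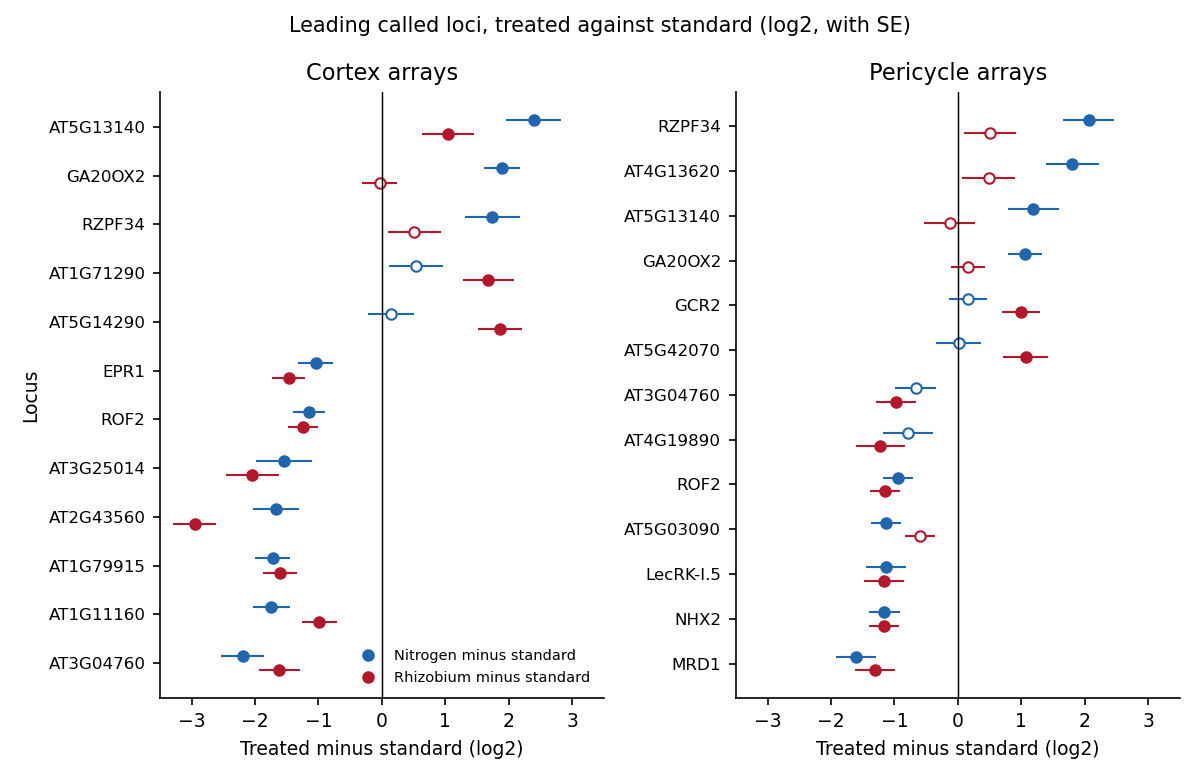
Log2 change against standard arrays of the same hours (point) with its SE (line) for leading called loci, in cortex and pericycle, on nitrogen and with rhizobium. Filled points passed the test (adjusted p below 0.05) and open points did not. GA20OX2 stands at 1.90 on nitrogen in cortex and AT2G43560 at -2.96 with rhizobium.

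In pericycle, RZPF34 and GA20OX2 again rose on nitrogen, and MRD1 and the vacuolar antiporter NHX2 fell on both treatments. On nitrogen, 6 of the 150 loci rose (8.52% of all loci) and 8 fell (11.1%), or 14 in either direction (19.6%). With rhizobium, 2 rose (13%) and 14 fell (8.84%). The median change was -0.05 on nitrogen and -0.17 with rhizobium, against 0.04 and 0.03 for all loci.

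RZPF34 had pericycle levels of 5.17, 9.10 and 13.84 in standard, 5.92, 11.21 and 13.52 in nitrogen and 4.93, 9.14 and 13.96 with rhizobium. It rose on nitrogen by 2.06 ± 0.41 (adjusted p = 4.8e-05 in limma), at 12 of 13 hours, and the change passed under each alternative run. GA20OX2 rose by 1.05 ± 0.27, AT4G13620 by 1.80 ± 0.42 and AT5G13140 by 1.19 ± 0.41, none of which passed without the arrays numbered 1. AT5G13140 also did not pass without those numbered 2 (adjusted p = 0.0966).

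MRD1 had a lowest, median and highest of 4.90, 8.77 and 10.25 on standard, 4.59, 6.68 and 12.25 on nitrogen and 4.71, 6.95 and 10.56 on rhizobium arrays of pericycle. The standard median was the highest, while single nitrogen and rhizobium arrays exceeded all standard arrays. It fell by 1.60 ± 0.32 on nitrogen (adjusted p = 4.42e-05 in limma) and by 1.31 ± 0.32 with rhizobium. NHX2 (AT3G05030), which loads potassium and sodium into the vacuole, fell by 1.16 ± 0.24 and 1.17 ± 0.24. LecRK-I.5 fell by 1.14 and 1.16, and ROF2 by 0.94 and 1.14. With rhizobium, MRD1, NHX2, LecRK-I.5 and ROF2 did not pass without the arrays numbered 3, at -0.97, -0.85, -0.71 and -0.83, and MRD1 also did not pass without those numbered 2 (-1.15).

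The pericycle counts depended on the arrays used. On nitrogen, 1 of the 150 loci rose (2.31% of all loci) and 5 fell (4.17%) without the arrays numbered 1. Without those numbered 2, 3 rose (6.69%) and 14 fell (8.04%), and without those numbered 3, 15 rose (4.61%) and 3 fell (8.22%). With rhizobium, 0 rose (12.8% of all loci) and 32 fell (7.82%) without the arrays numbered 1. Without those numbered 2, 0 rose (8.23%) and 4 fell (5.34%), and without those numbered 3, 6 rose (1.99%) and 0 fell (2.44%). After each array was centred on its median, 4 rose and 8 fell with rhizobium, or 33.3% rising among those called, against 12.5% without centring. The median of all loci moved from 0.03 to 0.15 in that scaling. The same centring gave 12 rising and 20 falling loci in cortex on nitrogen (37.5% rising, against 25.8%).

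Set against rhizobium in pericycle, nitrogen was higher at 8 of the 150 loci (6.24% of all loci) and lower at 6 (7.92%). RZPF34 was higher by 1.55 ± 0.40, AT2G43560 by 1.37 ± 0.33 (adjusted p = 0.0016 in limma) and GA20OX2 by 0.89 ± 0.26. AT2G43560 passed under each alternative run. Without the arrays numbered 1, 14 were higher (5% of all loci) and 1 lower (8.88%). Without those numbered 2, 2 were higher (2%) and 2 lower (2.64%), and without those numbered 3, 2 were higher (3.19%) and 2 lower (4.52%).

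Hour was tested with the 3 arms averaged. In cortex, 12 of the 150 loci changed over the 13 hours, against 9.19% of all loci. AT4G29310, AT5G43020 and ETR2 (AT3G23150) passed under each alternative run, and all 3 were lowest at 1 h. AT4G29310 had array levels of 6.29, 9.44 and 10.90 (lowest, median and highest) at 1 h and of 10.54, 12.27 and 13.01 at 2 h. The 0 h arrays, at 10.45, 12.72 and 12.86, lay near the later hours, and the F statistic was 8.70 (limma, adjusted p = 6.04e-10). ETR2 had a lowest and a median of 5.83 and 9.26 at 1 h, where its highest array lay within the 8 h range, and levels of 12.77, 12.94 and 13.83 at 8 h (F = 5.79, adjusted p = 3.21e-06). Its 0 h arrays were also low, at 9.77, 9.94 and 10.00, unlike those of AT4G29310. They lay below the lowest ETR2 array of 4 h (12.05).

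CSLA11, which makes mannan chains, went the other way early: its cortex levels were 10.00, 10.79 and 11.41 at 1 h and 5.43, 8.14 and 10.58 at 2 h. Its test (adjusted p = 0.000434 in limma) did not pass without the arrays numbered 3. GA20OX2 had its highest cortex mean at 16 h (9.98) and its lowest at 1 h (7.13). ARGOS, which extends organ growth downstream of auxin, was highest at 1 h (11.31) and lowest at 36 h (9.06). KNU and EPR1 also passed. The count was 6 without the arrays numbered 2 (3.59% of all loci) and 4 without those numbered 3 (3.06%). With cortex fitted alone the count was higher, as given at the end.

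In pericycle, 31 of the 150 loci changed over the hours, against 20.6% of all loci. EPR1 led, with an F of 8.52 (limma, adjusted p = 2.21e-09). Its pericycle levels were 5.92, 11.03 and 12.17 at 2 h, 5.45, 7.31 and 9.09 at 16 h, 5.53, 7.62 and 9.19 at 20 h and 9.06, 11.34 and 12.62 at 48 h. The arrays of the dawn hours differed among themselves, at 6.87, 8.20 and 10.25 at 0 h and 8.35, 10.04 and 11.97 at 24 h, and the 24 h median was close to those of 8 h (10.00) and 12 h (10.06). The medians at 16 and 20 h were thus the lowest of all hours, and those at 2 and 48 h the highest. Its cortex means at 16 and 20 h were 10.09 and 10.18, close to the 10.13 of 1 h. CYP89A2 had a lowest, median and highest of 7.60, 8.92 and 10.90 at 1 h and 6.05, 7.18 and 8.57 at 8 h (adjusted p = 3.01e-05). ETR2, HAI3, ARGOS, CDSP32, FNR1, SS1 and MRD1 were among the other loci that passed. Without the arrays numbered 1, 2 or 3 the count was 8 (7.66% of all loci), 10 (4.79%) and 12 (7.86%). It was also lower with pericycle fitted alone, as given at the end.

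**Figure D5:**
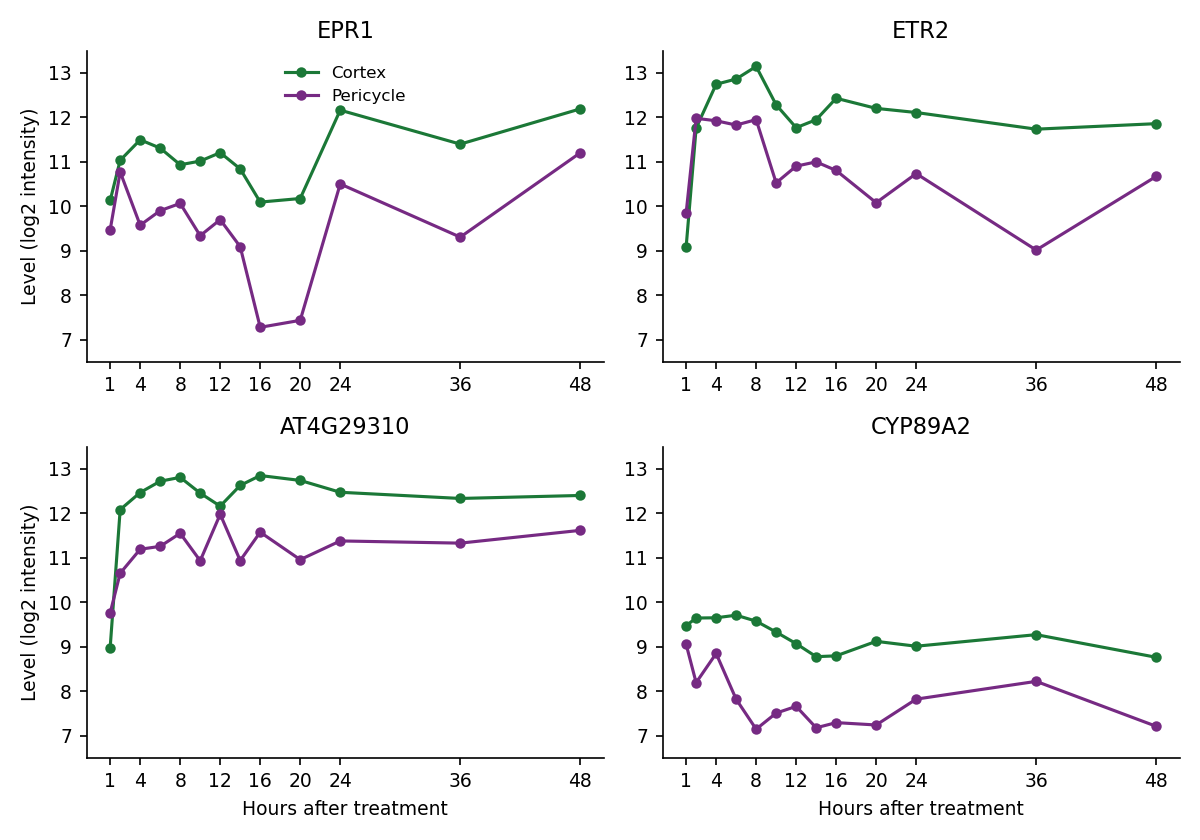
Mean log2 intensity over the 3 arms at each hour in cortex and pericycle for EPR1, ETR2, AT4G29310 and CYP89A2. EPR1 falls to 7.28 in pericycle at 16 h, and AT4G29310 and ETR2 are lowest in cortex at 1 h, at 8.98 and 9.08.

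Day hours (12 and 36 h) were set against dawn hours (24 and 48 h). In cortex, 0 of the 150 loci were higher by day and 1 lower, AT1G47497 by -2.35 ± 0.50 (limma, adjusted p = 0.00843), against 0.0147% and 0.0995% of all loci (0.114% in either direction). At an unadjusted p below 0.05 there were 9, again with no share of all loci beside the count. In pericycle, AT3G10190 (2.22 ± 0.60) and AT2G39870 (2.05 ± 0.50) were higher by day and EPR1 (-1.35 ± 0.38) lower, against 0.523% and 0.781% of all loci. AT1G47497, AT3G10190, AT2G39870 and EPR1 each failed to pass in this test without the arrays numbered 1, 2 or 3.

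No locus of the 150 passed a test of whether the cell type difference itself changed with the hour, against 0.125% of all loci. With array weights, 1 passed. At an unadjusted p below 0.05 there were 15, a count with no share of all loci beside it. The smallest p-values were those of AT2G20720 and ETR2 (adjusted p = 0.252 and 0.445 in limma). The rule's own values did vary by hour: the median of the 150 differences was at its lowest 0.64 in nitrogen and 0.73 in standard, and ran from 0.15 at 8 h to 2.46 at 24 h with rhizobium. At that 8 h point, 82 of the 150 loci were above 0, and the pericycle array means of the 150 loci were 9.45 and 9.13, near the cortex level. The standard and nitrogen pericycle arrays of 8 h were at 7.68, 7.88 and 9.38 and at 8.30, 8.07 and 9.24. The highest pericycle mean fell at 8 h for 28 of the 150 loci (18.7%, against 7.99% of all loci). It fell at 48 h for 30 (20% against 8.34%) and at 36 h for 24 (16% against 7.65%). The part of single arrays in these counts was not tested.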

How the data were processed

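The authors deposited RMA-normalised log2 intensities of custom NimbleGen arrays designed on TAIR10. RMA is named in the submitters' processing notes, but no software or release for it, and the arrays had passed the authors' quality control, per the series text. The series text lists 7 h and not 8 or 36 h, and names epidermal cells in one place, so hours and cell types follow the sample titles. Rows of a locus were averaged (31524 rows, 27143 loci), with no filter. The limma package (3.58.1, under R 4.3.3) gave each of 80 groups its own mean over 235 arrays (residual df 155, prior df 3.04), with Benjamini-Hochberg adjustment over all loci in each of the tests. It was tested on simulated data. Changes are log2 with SE. The number of arrays limits precision.

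The 150 loci, the 15 gene lists and the role groups were chosen with earlier results of these data known, and the roles were assigned after the loci were seen. Named loci were the first 20 by rank, the 3 on each side of the threshold, the 8 largest called changes per direction, the 8 smallest p-values per F test, list members and 4 leading loci of each role group. The text names a part of these, and other loci it names were chosen after their values were seen. Alternatives were array centring, row medians, leaving out low loci, separate cell types, a replicate block, covariates, array weights and leaving out replicate numbers. Each replicate number left out removes an array from many groups at once. Deviations from group means were compared between equally numbered arrays of a cell type: numbers 1, 2 and 3 gave mean r of 0.0054, 0.0085 and -0.0194 (cortex), then 0.0106, -0.0036 and 0.0178 (pericycle), so arrays were not paired.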

Additional observations from a re-analysis of the deposited data

Results flagged for a closer look

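MRD1 stood at 7.78 on pericycle array 2 of 0 h, while the other 4 arrays of that group lay between 4.96 and 5.43. Its gap to the nearest array was 0.833 of the group's range, above Dixon's critical value for 5 arrays. It was the only one of 24 loci tested this way to do so, and chance flags about 1 in 20 groups.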

How the results depend on the processing

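Of 1636 values of 118 named results under the alternatives, 1403 stayed as they were, called or not called, and 231 lost the call. Direction was kept in these where the test has one, which F tests do not. The 1403 include 104 values of the cell type difference by hour, which were not called in the main fit either. Another 2 values reversed: with the heat shock covariate, AT1G79915 (0.049) and ROF2 (1.81) in cortex with rhizobium. The cause of each change below was not tested. Counts of the 150 loci follow. Shares of all loci are not set beside them. They show how a count depends on the setting, and not how the 150 loci compare with all loci. At 0 h, 25 were higher with the heat shock covariate and 6 with the endodermis covariate (added after seeing the data). Cortex nitrogen rises were 13 with cell types fitted alone, 13 with the endodermis covariate and 14 with array weights, and falls 3 with the heat shock covariate. Cortex rhizobium rises were 21 alone, 5 with the heat shock covariate and 26 with weights, and falls 2 with that covariate. Cortex nitrogen was below rhizobium at 18 alone and 22 with weights. Pericycle nitrogen rises were 3 alone. Pericycle rhizobium rises were 4 centred, 1 alone and 5 with the endodermis covariate, and falls 8, 6 and 9. Pericycle nitrogen exceeded rhizobium at 5 alone and was lower at 1 alone and 3 with weights. Hour called 47 alone and 48 with weights in cortex, and 7 and 55 in pericycle. By day, 2 were lower in cortex with weights. In pericycle by day, 0 were higher alone and 1 with the heat shock covariate, and lower counts were 2 without low loci, 0 alone, 0 with that covariate and 7 with weights. The cell type difference changed by hour at 1 with weights. Leaving out replicate numbers gave ranges of 16 to 40 (0 h, higher) and 0 (lower), 4 to 8 and 16 to 23 (cortex nitrogen, up and down), 4 to 13 and 10 to 15 (cortex rhizobium), 2 to 5 and 2 to 7 (cortex nitrogen against rhizobium), 1 to 15 and 3 to 14 (pericycle nitrogen), 0 to 6 and 0 to 32 (pericycle rhizobium), 2 to 14 and 1 to 6 (pericycle nitrogen against rhizobium), 4 to 14 (hour in cortex), 8 to 32 (hour in pericycle), 0 and 0 to 1 (day in cortex), 0 to 2 and 0 to 1 (day in pericycle), 0 (cell type by hour) and 89 to 150 (loci chosen again). Of the 150 loci, 71 were chosen again by the mean of the 3 arms and 101 by the median of the hours. With replicate number as a block, 31 were higher at 0 h, and no count moved by over 1.5 times. Without raw scans, signal over background was not examined, and low levels in pericycle carry little information on size.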
